A study of Mus musculus with 3 samples.

Results

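The 9 genes described here carry the guanylin signal of the small intestine and the salt, bicarbonate and water transport it acts on: Guca2a, Guca2b, Gucy2c, Cftr, Slc9a3, Slc26a3, Slc26a6, Slc4a7 and Car4. They were taken by name from a single-cell table of 13891 genes, and all 9 were in it. Each was followed in 7 cell classes, which were stem, goblet, enteroendocrine, early, mid, mature and ileal enterocyte, and in the 3 libraries of the study. The mice were male ICR animals aged 3 weeks at the start. AOS 0 mice received neither drug nor oligosaccharide and were gavaged with ddH2O. B + A 0 mice were injected once with busulfan, an alkylating chemotherapy agent, at 40 mg/kg and then also given ddH2O. B + A 10 mice had the same busulfan injection followed by daily AOS (alginate oligosaccharides) at 10 mg/kg, and gavage lasted 2 weeks in every group. The cells of 6 mice were combined into 1 droplet 3′ library per group, so the spread between mice is not seen, no test between groups was possible, and no p-value is given.

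Guanylin, made from Guca2a, and uroguanylin, made from Guca2b, are small peptides secreted into the gut lumen, where both bind guanylate cyclase C, the product of Gucy2c, on the apical face of epithelial cells. The cyclic GMP that the receptor makes acts through protein kinases to open the chloride and bicarbonate channel encoded by Cftr and to restrain the sodium/hydrogen exchanger encoded by Slc9a3, so that salt and water move toward the lumen. Slc26a3 and Slc26a6 encode apical exchangers of chloride and other anions for bicarbonate, Slc4a7 a sodium bicarbonate cotransporter, and Car4 a membrane-anchored carbonic anhydrase that interconverts carbon dioxide and bicarbonate at the cell surface.

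The genes of the 2 peptides lie side by side on mouse chromosome 4 (GRCm38). Guca2a spans chr4:119637704-119639471 on the plus strand and Guca2b chr4:119656607-119658954 on the minus strand. The 17135 bases between them hold 0 annotated genes, and the pair point toward each other. Their upstream stretches are shown because these neighbouring genes had their highest levels in different cell classes. They come from RefSeq (GRCm38.p6), run 5′ to 3′ on each gene's own strand, and stop at the base before the annotated gene. That of Guca2a is chr4:119637482-119637703 (plus strand, 222 bases) and that of Guca2b is chr4:119658955-119659195 (minus strand, 241 bases). Capitals mark the letters of 4 motifs searched on both strands: AGATAA for GATA factors (TTATCT on the other strand), GTTAAT for HNF1 factors, TTTATG for CDX factors and CAGCTG for an E-box.
Guca2a: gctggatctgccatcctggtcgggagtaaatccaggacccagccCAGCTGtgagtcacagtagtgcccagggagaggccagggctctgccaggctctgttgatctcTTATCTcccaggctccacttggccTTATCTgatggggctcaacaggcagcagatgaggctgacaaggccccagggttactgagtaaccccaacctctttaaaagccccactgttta
Guca2b: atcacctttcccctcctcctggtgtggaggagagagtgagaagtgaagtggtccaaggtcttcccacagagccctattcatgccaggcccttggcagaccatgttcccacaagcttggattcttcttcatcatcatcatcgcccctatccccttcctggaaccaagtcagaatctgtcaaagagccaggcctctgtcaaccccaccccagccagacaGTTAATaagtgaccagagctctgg

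In the 250 bases before its RefSeq start, Guca2a held CAGCTG 206 bases before the start and AGATAA at 144 and at 120 bases before it, but neither the HNF1 nor the CDX letters. Guca2b held GTTAAT 33 bases before its start and none of the other 3 motifs. Of 32851 mouse promoters of the same length, 13.0% held CAGCTG, 9.99% AGATAA, 6.43% GTTAAT and 10.8% TTTATG. Among the other members, Slc26a3 held GTTAAT at 94 and at 84 bases before its RefSeq start and Slc4a7 held TTTATG at 58 bases, while Cftr, Slc9a3, Slc26a6 and Car4 held none of the 4. The stretches searched for Slc26a3 (chr12:31437969-31438218), Slc4a7 (chr14:14718534-14718783) and Slc26a6 (chr9:108853793-108854042) lie inside the gene spans given below, not upstream of them. No match overlapped another. Gucy2c was not searched. A match describes letters only and is not a bound site.

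The remaining members are spread over 7 further chromosomal places: Gucy2c at chr6:136697284-136781765 (minus strand), Cftr at chr6:18170687-18322768, Slc9a3 at chr13:74121457-74169442, Slc26a3 at chr12:31390871-31473917, Slc26a6 at chr9:108853283-108913049, Slc4a7 at chr14:14702279-14799940 and Car4 at chr11:84957786-84966044, all but the first on the plus strand. Cftr overlaps the antisense gene Gm15592 and the processed pseudogene Gm15595, and Slc26a3 overlaps the processed pseudogene Gm9359 on its own strand. How reads on these overlaps were assigned was not tested.

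Where values of the 3 libraries follow each other, AOS 0 stands first, then B + A 0, with B + A 10 last. The libraries held 4106, 3195 and 5352 cells, with 35258551, 26044381 and 23003083 UMIs (counted RNA molecules) and medians of 7371, 6407 and 3505 UMIs per cell. The B + A 10 cells were thus the shallowest. The libraries shared 17, 34 and 31 cell barcodes by pair. Titles, descriptions and treatment fields gave the groups, while the source name field of the labels calls the B + A 0 library AOS10 and the B + A 10 library B+A0. Classes were clusters named from marker genes outside the set, so that goblet, mature enterocyte and the other class names stand for goblet-like, mature enterocyte-like and so on. The 7 classes held 2424 goblet, 1653 mature, 1080 ileal, 1044 mid, 911 stem, 823 early and 155 enteroendocrine cells. Defining markers were higher inside than outside, such as Muc2 at 92.7 against 4.71 UMIs per 10000 UMIs for goblet cells and Fabp6 at 416 against 15.0 for ileal cells. The mature class was led by markers of proximal enterocytes, and its markers Nt5e (0.00296 against 0.0137) and Ada (0.340 against 0.312) did not stand out. A duodenal enterocyte class of 343 cells and a T lymphocyte class of 311 cells are used beside the 7.

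Levels are UMIs of a gene per 10000 UMIs of the cells of a class, and since each molecule is counted once at its 3′ end they were not divided by gene length. Intervals are exact 95% Poisson intervals for levels, exact 95% binomial (Clopper-Pearson) intervals for shares, and for ratios are built from the exact binomial of the UMIs of both libraries. They cover counting error only. Where the interval of a ratio does not hold 1, the libraries or classes are said to differ beyond counting error.

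The set covered a wide range of abundance. Guca2a had 223986 UMIs, rank 47 of all genes, and Guca2b 100097 UMIs, rank 151, while the other 7 members had between 3634 UMIs (Slc4a7) and 8375 UMIs (Slc26a6). Among the 7 classes, 5 members had their highest level in mature enterocytes, namely Guca2b, Gucy2c, Slc9a3, Slc26a6 and Slc4a7, where 19.7% of 9296 genes with at least 300 UMIs had theirs. Guca2a was highest in goblet cells (5.92% of genes), Cftr in stem cells (29.8%), Slc26a3 in mid enterocytes (9.17%) and Car4 in ileal enterocytes (6.56%), and no member was highest in enteroendocrine cells (20.5%) or early enterocytes (8.29%). The highest class was the same in all 3 libraries for each member other than Cftr, whose highest level in B + A 10 was in early enterocytes.

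**Figure D1:**
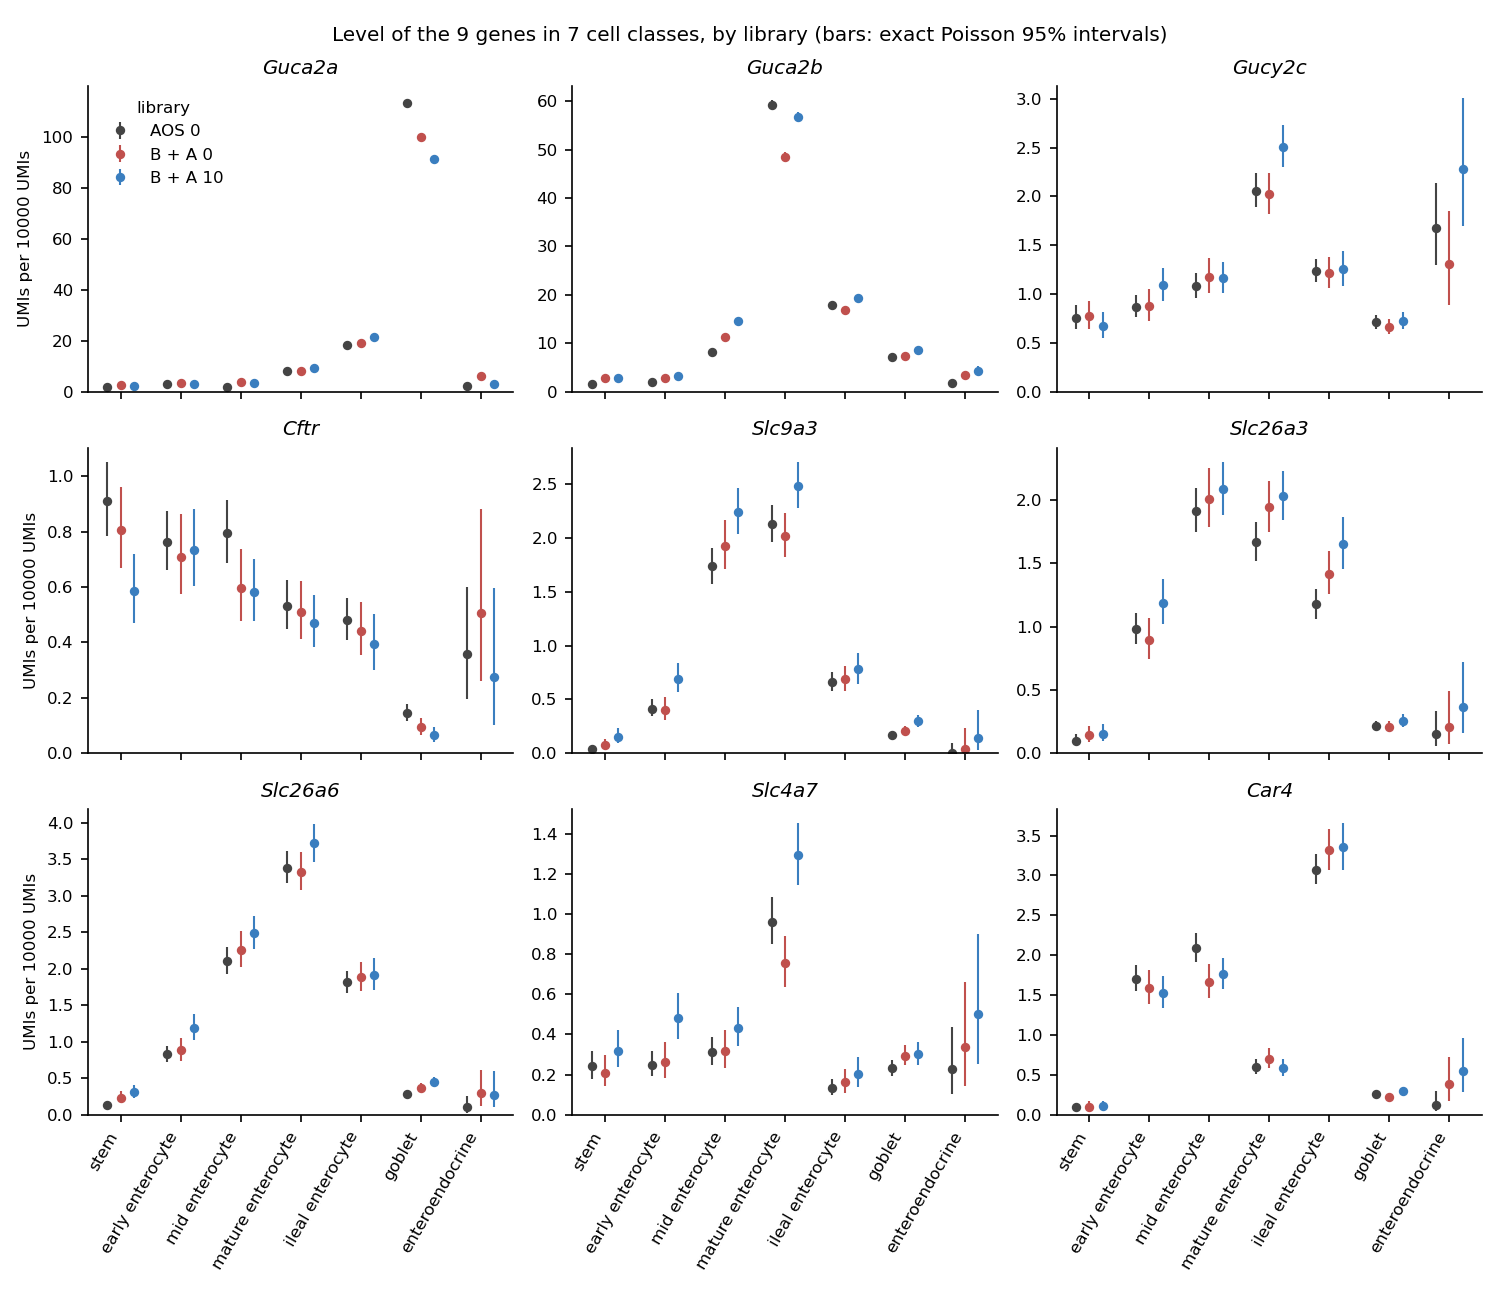
Levels of the 9 genes (y axis, UMIs per 10000 UMIs, own scale in each panel) in 7 cell classes (x axis), with 1 point per library in black for AOS 0, red for B + A 0 and blue for B + A 10 and bars for exact Poisson 95% intervals. Guca2a stands at 91.2 to 113 in goblet cells and Guca2b at 48.4 to 59.3 in mature enterocytes, each far above the other classes, while Gucy2c and Cftr are spread over all classes.

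Guca2a, the guanylin gene, was at 103 UMIs per 10000 in goblet cells (interval 103 to 104), 49.4-fold its level in stem cells (46.5 to 52.5). Ileal enterocytes came next at 19.2, mature enterocytes at 8.41, and enteroendocrine, early, mid and stem cells lay between 2.09 and 3.32. Enteroendocrine and early enterocyte cells did not differ beyond counting error. Goblet cells held 64.5% of all Guca2a UMIs while holding 16.6% of all UMIs. The gene was also high in classes outside the 7, at 57.4 in crypt secretory and 21.5 in Paneth cells.

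Within the goblet class the level varied widely from cell to cell, with a median of 86.6 UMIs per 10000, the lowest 10% of cells at or under 13.0 and the highest 10% at or above 202. It was also uneven between the 3 clusters of the class. Cluster 2 was at 153, 132 and 124 in the 3 libraries, cluster 7 at 67.6, 68.5 and 58.0, and cluster 13, in which 55.8% of cells were called doublets, at 63.6, 58.2 and 50.6. Guca2a was among the 10 leading genes of cluster 2, although it took no part in the clustering, and that cluster scored higher on the crypt secretory marker list (2.01) than on the goblet list (1.77).

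The gene in goblet cells was at 113 UMIs per 10000 in AOS 0 (112 to 114), 100.04 in B + A 0 (99.1 to 101) and 91.2 in B + A 10 (90.3 to 92.2), so the 3 intervals did not overlap. The ratio of B + A 0 to AOS 0 was 0.883 (0.872 to 0.893), where 20% of 3843 genes measured in goblet cells were lower beyond counting error. B + A 10 stood at 0.912 of B + A 0 (0.899 to 0.925, with 13.4% of genes lower) and at 0.805 of AOS 0 (0.794 to 0.815, with 28.6% lower). These ratios lay inside the middle 90% of goblet cell genes, which for B + A 10 to AOS 0 ran from 0.698 to 1.38. The level was thus lowest in the library of mice given busulfan and AOS, by a size that many goblet cell genes reached.

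By cluster, the ratio of B + A 0 to AOS 0 was 0.860 in cluster 2 and 0.916 in cluster 13, but 1.01 in cluster 7 (0.985 to 1.04). Thus 1 of the 3 goblet clusters showed no difference beyond counting error in that comparison. The ratio of B + A 10 to AOS 0 was below 1 in each, at 0.814, 0.858 and 0.796 for clusters 2, 7 and 13. Cluster 2 made up 54.6, 52.2 and 50.6% of goblet cells in the 3 libraries.

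In ileal and mature enterocytes the order of the libraries was different. In ileal enterocytes Guca2a was at 18.2, 19.2 and 21.2 in the 3 libraries, and in mature enterocytes at 7.90, 8.21 and 9.26. Of the ileal clusters, cluster 12 was at 25.1, 23.8 and 33.3, and cluster 8 at 15.6, 17.1 and 16.5, so B + A 10 was the highest library in cluster 12 and not in cluster 8. In Paneth cells, outside the 7 classes, AOS 0 was again the highest, at 26.3 against 19.2 and 20.8, as it was in the duodenal class, at 2.46 against 1.95 and 1.82. Crypt secretory cells, also outside the 7, went another way. There AOS 0 was at 56.7 (55.6 to 57.7), B + A 0 was the highest at 60.6 (59.3 to 62.0) and B + A 10 was at 53.4. Over the 7 classes, B + A 0 was above AOS 0 beyond counting error in 5 and below it in 1, the goblet class.

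Goblet RNA itself also differed between the libraries. The 9 goblet markers summed to 29.1 UMIs per 10000 in stem cells of AOS 0, against 64.6 in B + A 0 and 78.1 in B + A 10, and the sum in T lymphocytes was 27.7, 76.5 and 91.6. All 9 markers were higher in B + A 0 and in B + A 10 than in AOS 0 in stem, dividing, enteroendocrine, early, mid, mature, ileal and T lymphocyte cells, and none was at 0. Within goblet cells the sum was 3046, 3226 and 3305, with 5 of 9 markers higher in B + A 0 than in AOS 0. Guca2a in T lymphocytes, which should lack it, was at 3.87, 5.72 and 5.50, above its levels in stem cells of 1.78, 2.43 and 2.15. From B + A 0 to B + A 10 the marker sum rose in stem cells and T lymphocytes, while Guca2a did not. The part of goblet RNA in the levels of Guca2a outside goblet cells was not tested.

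**Figure D2:**
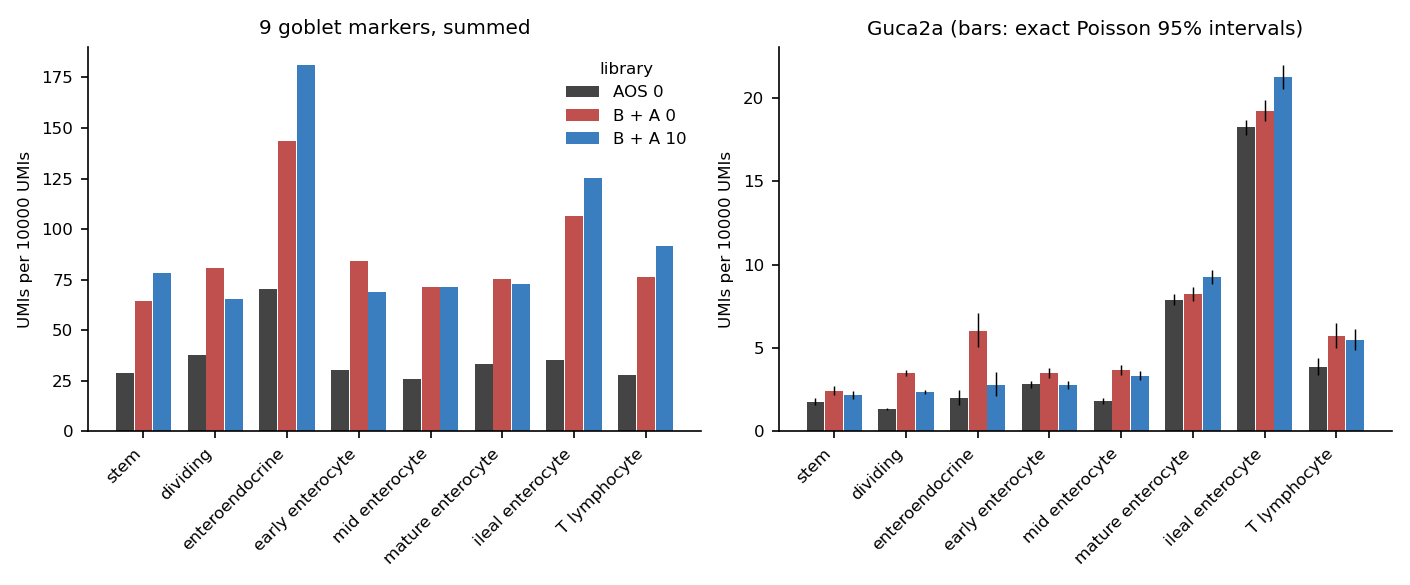
Summed level of 9 goblet markers (left) and level of Guca2a (right, bars for exact Poisson 95% intervals) in 8 cell classes other than goblet, in UMIs per 10000 UMIs, with bars in black for AOS 0, red for B + A 0 and blue for B + A 10. The marker sum in AOS 0 is the lowest of the 3 libraries in every class shown, 29.1 in stem cells against 64.6 and 78.1, and Guca2a is lowest in AOS 0 in each class except early enterocytes, where B + A 10 is lowest.

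Guca2b, the uroguanylin gene, had the opposite centre. It was at 55.5 UMIs per 10000 in mature enterocytes (54.9 to 56.1), 24.7-fold its level in stem cells (23.3 to 26.2). Ileal enterocytes were at 17.9, mid enterocytes at 11.04 and goblet cells at 7.65, and each neighbouring pair of these 4 differed beyond counting error. Mature enterocytes held 37.5% of its UMIs and 8.01% of all UMIs. Goblet clusters 2, 7 and 13 were at 8.20, 2.80 and 13.2, and 55.8% of cluster 13 cells were called doublets. The spread between mature cells was narrower than that of Guca2a between goblet cells, with a median of 53.6, the lowest 10% of cells at or under 24.05 and the highest 10% at or above 92.8.

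In mature enterocytes Guca2b was at 59.3 UMIs per 10000 in AOS 0 (58.4 to 60.2), 48.4 in B + A 0 (47.4 to 49.4) and 56.7 in B + A 10 (55.7 to 57.8). The B + A 0 library was the lowest and B + A 10 lay nearer to AOS 0. B + A 0 stood at 0.816 of AOS 0 (0.796 to 0.838), where 15.5% of 2840 genes measured in the class were lower beyond counting error. B + A 10 stood at 1.17 of B + A 0 (1.14 to 1.20), where 16.2% of genes were higher, and at 0.956 of AOS 0 (0.934 to 0.979), where 17.2% were lower. These 3 ratios share libraries and are not independent of each other. The classes were also formed in 5 other ways, namely without joining the libraries, at 2 other clustering resolutions, with the described genes kept in the clustering and from each cell's own marker score. The ratio of B + A 10 to AOS 0 was within counting error in 2 of the 5, and the other ratios stayed beyond it in 5.

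Less mature and crypt cells showed another order of libraries. Guca2b in mid enterocytes was at 8.25, 11.3 and 14.6 in the 3 libraries, and in stem cells at 1.52, 2.71 and 2.76. B + A 10 was above AOS 0 beyond counting error in 6 of the 7 classes and below it in mature enterocytes. The 11 markers of mature and proximal enterocytes summed to 10.9, 16.1 and 17.7 in stem cells and to 203, 211 and 228 in mid enterocytes, while Guca2b in T lymphocytes was at 14.01, 13.04 and 16.7, above mid enterocytes in each library. The part of this RNA in the Guca2b values was not tested.

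The balance of the peptides differed by class far more than by library. Goblet cells held 13.5 Guca2a UMIs for each Guca2b UMI (15.7, 13.5 and 10.7 in the 3 libraries), ileal enterocytes 1.07 (1.02, 1.14 and 1.09) and mature enterocytes 0.152 (0.133, 0.170 and 0.163). More Guca2a than Guca2b was counted in 92.9% of goblet, 54.0% of ileal and 0.786% of mature cells. The goblet values include cluster 13, in which 55.8% of cells were called doublets. The 2 ileal clusters leaned opposite ways, cluster 8 with Guca2a at 16.2 and Guca2b at 11.4 UMIs per 10000, cluster 12 with Guca2a at 26.5 and Guca2b at 34.1. Stem cells, at 0.929 Guca2a UMIs for each Guca2b UMI, enteroendocrine cells, at 1.15, and early enterocytes, at 1.21, also held similar numbers of both, at low levels.

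**Figure D3:**
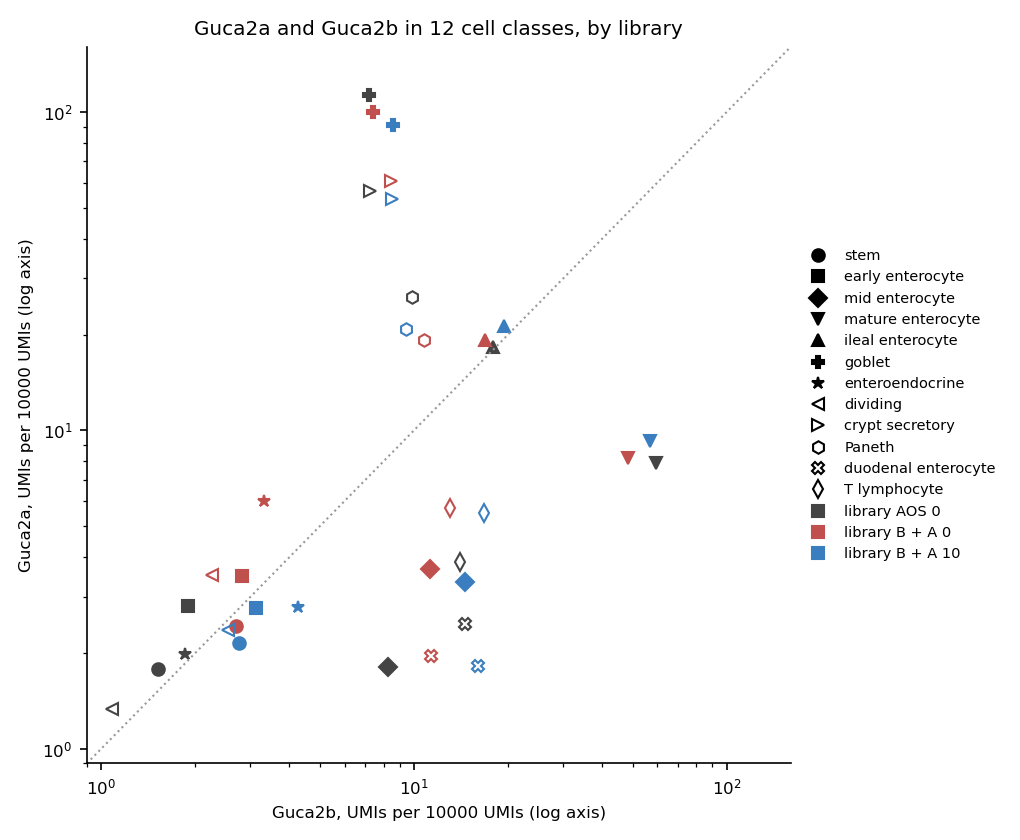
Level of Guca2a (y axis) against level of Guca2b (x axis), both in UMIs per 10000 UMIs on log axes, in 12 cell classes (symbols) and 3 libraries (black AOS 0, red B + A 0, blue B + A 10), with a dotted line of equal levels. Goblet cells lie far above the line at 91.2 to 113 of Guca2a, mature enterocytes far below it at 48.4 to 59.3 of Guca2b, and ileal enterocytes on or close to it.

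Gucy2c, the receptor of both peptides, was the most even member. Its level was 2.19 UMIs per 10000 in mature enterocytes, 1.73 in enteroendocrine cells, 1.23 in ileal and 1.13 in mid enterocytes, 0.932 in early enterocytes, 0.734 in stem cells and 0.698 in goblet cells, a range of 3.14-fold (2.90 to 3.41). Ileal and mid enterocytes, and likewise stem and goblet cells, did not differ beyond counting error. Within the 7 classes, and over the 3 libraries together, the receptor had its lowest level in the class with the most Guca2a and its highest in the class with the most Guca2b, while Paneth cells, outside them, were lower still at 0.279. In mature enterocytes it was at 2.06 in AOS 0 (1.89 to 2.24), 2.02 in B + A 0 (1.82 to 2.24) and 2.51 in B + A 10 (2.30 to 2.73). B + A 0 and AOS 0 were alike within counting error (ratio 0.982, 0.860 to 1.12), and B + A 10 stood at 1.24 of B + A 0 (1.09 to 1.42) and 1.22 of AOS 0 (1.08 to 1.37). With classes from each cell's own marker score, 1 of the 5 other ways, both of these were within counting error, the first at a log2 ratio of 0.10 (-0.09 to 0.28) in place of 0.31. T lymphocytes, which should lack the gene, had the same order of libraries, at 0.700, 0.684 and 1.08 from 45, 27 and 58 UMIs. The part of such RNA in the Gucy2c values was not tested.

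Cftr, the channel through which secreted chloride and bicarbonate leave the cell, was the 1 member with its highest level of the 7 classes at the crypt end. It was at 0.782 UMIs per 10000 in stem cells, 0.741 in early, 0.677 in mid, 0.506 in mature and 0.449 in ileal enterocytes, 0.377 in enteroendocrine cells and 0.106 in goblet cells, a range of 7.36-fold (6.08 to 8.95). Most neighbours in this order did not differ beyond counting error, but mature enterocytes were at 0.647 of stem cells (0.558 to 0.750) and goblet cells at 0.210 of mature enterocytes (0.172 to 0.255). Goblet cells were the lowest in all 3 libraries. Goblet clusters 2, 7 and 13 were at 0.0482, 0.0334 and 0.376, and 55.8% of cluster 13 cells were called doublets. Dividing cells, outside the 7 classes, were at 0.837 and held 38.2% of its UMIs, and tuft cells held 0 UMIs, for which the interval reaches up to 0.302 UMIs per 10000.

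Cftr in stem cells was at 0.912 in AOS 0 (0.785 to 1.05), 0.804 in B + A 0 (0.667 to 0.962) and 0.585 in B + A 10 (0.469 to 0.720). B + A 10 stood at 0.641 of AOS 0 (0.492 to 0.831), where 27.7% of 2213 genes measured in stem cells were lower beyond counting error, and at 0.727 of B + A 0 (0.546 to 0.965), where 12.7% were lower. With the classes formed in the 5 other ways, the ratio to AOS 0 stayed beyond counting error in 5 (0.676 to 0.706), but that to B + A 0 in 1 (0.841 to 0.942), and B + A 0 was then itself below AOS 0 beyond counting error in 5 (0.720 to 0.830). B + A 10 was lower than AOS 0 in 7 of the 7 classes, and beyond counting error in 3 of them, stem, mid enterocyte and goblet cells. In no class was Cftr higher beyond counting error in any of the 3 comparisons.

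Slc9a3, which takes up sodium in exchange for protons, followed the enterocyte line upward. It was at 0.0816 UMIs per 10000 in stem cells, 0.488 in early, 1.95 in mid and 2.21 in mature enterocytes, and lower at 0.698 in ileal enterocytes. Goblet cells were at 0.215 and enteroendocrine cells at 0.0471, from 4 UMIs in all and 0 in AOS 0 (upper bound 0.0939), so that the ratio of its highest to its lowest level, 47.0, had a wide interval (18.3 to 173). Of the 302 goblet UMIs, 207 lay in cluster 13, in which 55.8% of cells were called doublets. That cluster was at 0.779, and goblet clusters 2 and 7 were at 0.0830 and 0.0847. In mature enterocytes the libraries were at 2.13 (1.96 to 2.31), 2.02 (1.82 to 2.24) and 2.49 (2.28 to 2.71). B + A 10 stood at 1.23 of B + A 0 (1.07 to 1.41) and 1.17 of AOS 0 (1.04 to 1.32), and B + A 0 did not differ from AOS 0 beyond counting error. Slc9a3 was higher in B + A 10 than in AOS 0 beyond counting error in 5 of the 7 classes, among them stem cells, where the ratio of 4.43 (1.84 to 12.2) rests on few UMIs.

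Slc26a3 and Slc26a6, the apical anion exchangers, were likewise low in stem cells and high in villus enterocytes. Slc26a3 was at 1.99 in mid and 1.86 in mature enterocytes, which did not differ beyond counting error (ratio 1.07, 0.991 to 1.16), at 1.35 in ileal and 1.02 in early enterocytes, and at 0.127 in stem cells. Slc26a6 was at 3.47 in mature, 2.26 in mid, 1.86 in ileal and 0.941 in early enterocytes, and at 0.213 in stem cells and 0.200 in enteroendocrine cells, which did not differ beyond counting error. Both were higher still in the duodenal class, at 2.59 and 4.32.

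The exchangers varied little between libraries where they were highest. Slc26a3 in mid enterocytes was at 1.92 (1.75 to 2.09), 2.01 (1.79 to 2.26) and 2.09 (1.88 to 2.30), and none of the 3 ratios was beyond counting error. In ileal enterocytes it was at 1.17, 1.42 and 1.65, with B + A 10 at 1.41 of AOS 0 (1.20 to 1.65). Slc26a6 in mature enterocytes was at 3.38 (3.17 to 3.61), 3.33 (3.07 to 3.60) and 3.72 (3.46 to 3.99), with B + A 10 at 1.12 of B + A 0 (1.004 to 1.24) and the other ratios within counting error. The Slc26a6 ratio was within it in 2 of the 5 other ways of forming classes. B + A 10 was above AOS 0 in 7 of the 7 classes for both genes, beyond counting error in 2 for Slc26a3 and in 4 for Slc26a6.

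Slc4a7, which brings sodium and bicarbonate into the cell, was low in most classes and higher in mature enterocytes. It was at 1.01 UMIs per 10000 in mature enterocytes, between 0.255 and 0.351 in mid, enteroendocrine, early, goblet and stem cells, whose neighbours in order did not differ beyond counting error, and lowest at 0.157 in ileal enterocytes. The duodenal class was at 6.84, which was 6.77-fold mature enterocytes (6.14 to 7.48), and held 27.1% of the gene's UMIs with 1.71% of all UMIs. In mature enterocytes the libraries were at 0.962 (0.850 to 1.08), 0.757 (0.637 to 0.892) and 1.29 (1.14 to 1.45). B + A 0 was lowest and stood at 0.787 of AOS 0 (0.637 to 0.969). B + A 10 stood at 1.71 of B + A 0 (1.39 to 2.11), above the 95th percentile of 1.36 among genes of the class, and at 1.34 of AOS 0 (1.13 to 1.60). With the 5 other classings the ratio to B + A 0 stayed beyond counting error in 5 (1.44 to 1.82), while that of B + A 0 to AOS 0 was within it in 2 and that of B + A 10 to AOS 0 in 1. In the duodenal class Slc4a7 was at 6.26, 6.21 and 7.81. T lymphocytes had the same order of libraries as mature enterocytes, at 0.358, 0.253 and 0.746. Those levels rest on 23, 10 and 40 UMIs. Tuft cells, over the libraries together, were at 1.88 (1.19 to 2.82). Whether T lymphocytes make Slc4a7 themselves was not tested. The part of RNA from other cells in the mature enterocyte values was not tested either.

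Car4, the surface carbonic anhydrase, was highest in the class where Slc4a7 was lowest. It was at 3.21 in ileal enterocytes (3.07 to 3.34), 1.88 in mid and 1.63 in early enterocytes, 0.625 in mature enterocytes, and 0.0995 in stem cells, a range of 32.2-fold (24.4 to 43.6). In the duodenal class it was at 0.0901. Ileal cells held 34.4% of its UMIs. In ileal enterocytes the libraries were at 3.07 (2.89 to 3.27), 3.31 (3.07 to 3.58) and 3.35 (3.07 to 3.65), and none of the 3 ratios was beyond counting error. The ileal clusters went different ways. Cluster 8 was at 3.27, 3.22 and 3.66, with its ratios within counting error, and cluster 12 at 2.55, 3.53 and 2.58. There B + A 0 stood at 1.38 of AOS 0 (1.14 to 1.67). B + A 10 stood at 0.732 of B + A 0 (0.579 to 0.922). With classes from each cell's own score, the ratios of both libraries given busulfan to AOS 0 were just beyond counting error. Their log2 values were 0.15 (0.002 to 0.30) and 0.16 (0.002 to 0.32). In mid enterocytes AOS 0 was the highest at 2.09, with B + A 0 at 1.66 and B + A 10 at 1.76.

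**Figure D4:**
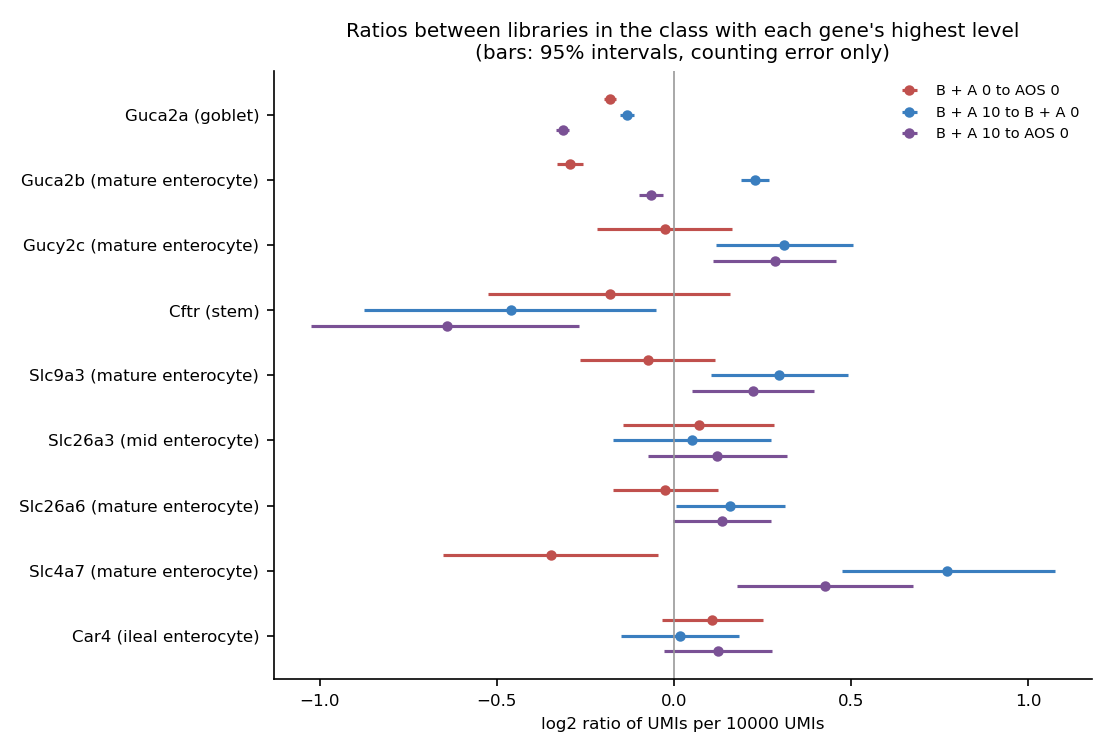
Log2 ratios of the level of each gene between libraries (x axis) in the class, named beside the gene, where its level is highest, with points in red for B + A 0 to AOS 0, blue for B + A 10 to B + A 0 and purple for B + A 10 to AOS 0 and bars for 95% intervals of counting error. Guca2a is below 0 in all 3 comparisons, Slc4a7 has the largest ratio above 0, at 0.77 for B + A 10 to B + A 0, and all bars of Slc26a3 and Car4 cross 0.

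Counted by class, most members of B + A 10 that differed beyond counting error from AOS 0 or B + A 0 were higher, and each count is read against the percentage of all genes that did the same among those reaching 300 UMIs in that class. In mature enterocytes, 1 member was higher (14.2% of genes) and 2 were lower (15.5%) in B + A 0 than in AOS 0, 6 were higher (16.2%) and 0 lower (13.1%) in B + A 10 than in B + A 0, and 5 were higher (19.9%) and 1 lower (17.2%) in B + A 10 than in AOS 0. The 1 member higher in B + A 0 than in AOS 0 was Slc26a3. The 6 were Guca2a, Guca2b, Gucy2c, Slc9a3, Slc26a6 and Slc4a7, of which Gucy2c was within counting error in 1 and Slc26a6 in 2 of the 5 other classings. In mid enterocytes the same 3 comparisons gave 2 higher (9.95%) and 2 lower (16.4%), 1 higher (9.95%) and 0 lower (11.9%), and 5 higher (16.4%) and 2 lower (26.2%). In early enterocytes they gave 2 higher (9.25%, Guca2a and Guca2b) and 0 lower (17.2%), 4 higher (10.8%) and 1 lower (11.3%), and 5 higher (15%) and 0 lower (26.4%). The 4 genes that were higher in B + A 10 than in B + A 0 in early enterocytes were Slc9a3, Slc26a3, Slc26a6 and Slc4a7. In B + A 10, Slc26a6 and Slc4a7 were lower in early enterocytes (1.19 and 0.482) than in T lymphocytes (1.31 and 0.746). Slc9a3 and Slc26a3 were higher (0.693 and 1.19 against 0.522 and 0.784).

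In ileal enterocytes the comparisons gave 2 higher (9.16%) and 1 lower (20.9%), 2 higher (15.1%) and 0 lower (7.53%), and 3 higher (17.4%) and 0 lower (21.4%). In goblet cells they gave 1 higher (7.57%) and 2 lower (20%), 3 higher (12.1%) and 1 lower (13.4%), and 4 higher (13.1%) and 2 lower (28.6%), the lower genes being Guca2a and Cftr. In stem cells they gave 3 higher (9.4%) and 0 lower (16.4%), 0 higher (8.27%) and 1 lower (12.7%), and 4 higher (13.5%) and 1 lower (27.7%), the lower gene being Cftr. The 3 were Guca2a, Guca2b and Slc26a6, and Slc9a3 joined them in the 4. The share of stem and of early cells with a UMI of either peptide gene, given with the thinned cells, did not exceed that of T lymphocytes. In B + A 10, Slc26a6 and Slc9a3 in stem cells were at 0.306 and 0.153, below T lymphocytes at 1.31 and 0.522. The 4 higher genes of goblet cells, Guca2b, Slc9a3, Slc26a6 and Slc4a7, were at 8.56, 0.297, 0.449 and 0.302 in B + A 10. T lymphocytes of that library were above these, at 16.7, 0.522, 1.31 and 0.746. Among the goblet clusters of B + A 10, these 4 genes were highest in cluster 13, at 16.2, 0.994, 1.43 and 0.511. In that cluster 55.8% of cells, over all libraries, were called doublets. In enteroendocrine cells, where 0 members had 300 UMIs, the comparisons gave 2 higher (34.9%) and 0 lower (13.2%), 1 higher (11.9%) and 1 lower (32.8%), and 2 higher (24.3%) and 0 lower (28.7%). Members were counted whatever their UMIs, and a gene with more UMIs has a narrower interval.

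The share of cells with a UMI depends on depth, so each cell was also thinned to 1000 UMIs. T lymphocytes (median 4227 UMIs per cell) served as cells taken to lack these genes, which was not tested for Slc4a7. Guca2a was seen in 93.4% of thinned goblet cells (92.3 to 94.4, 98.6% before thinning, median 5320 UMIs) against 27.7% of T lymphocytes (22.8 to 33.0), and Guca2b in 97.2% of mature enterocytes (99.8% before thinning, median 3845 UMIs) against 45.7%. The T lymphocyte shares were themselves above those of stem cells, 13.7% for Guca2a and 19.4% for Guca2b, and the mature and proximal enterocyte markers summed to 101, 109 and 113 in T lymphocytes. Guca2a in stem, early, mid and enteroendocrine cells and Guca2b in stem, early, goblet and enteroendocrine cells were at or under the T lymphocyte share, so they are not read as expression above background. T lymphocytes held more RNA of mature enterocytes than stem cells did (10.9 to 17.7 of the same markers), and how much of either class's peptide RNA came from other cells was not tested.

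Among the rarer members, Gucy2c was seen in 19.7% of thinned mature enterocytes (56.4% before thinning) and 20% of enteroendocrine cells against 6.75% of T lymphocytes, Slc9a3 in 21.5% of mature enterocytes (54.6%) against 5.14%, and Slc26a3 in 19.9% of mid enterocytes (64.1%) against 5.14%. Slc26a6 was seen in 29.0% of mature enterocytes (72.1% before thinning) against 12.9%, and Car4 in 24.9% of ileal enterocytes (70.9%) against 7.07%. Cftr in stem cells, 7.79% (6.14 to 9.73) against 3.54% (1.78 to 6.24), and Slc4a7 in mature enterocytes, 9.38% (8.01 to 10.9) against 5.47% (3.22 to 8.61), had intervals that overlapped those of T lymphocytes. Slc4a7 in the duodenal class was seen in 50.1% of cells. Cftr in goblet cells was at 0.825%, below the T lymphocyte share.

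Levels of a whole library also depend on its shares of cell classes. Weighting the class levels of each library by the same class shares, no member differed by 1.5-fold or more in any comparison. Over 9296 genes, 0.871% were higher and 0.871% lower by that much in B + A 0 than in AOS 0, 0.753% and 0.516% in B + A 10 than in B + A 0, and 2.11% and 2.01% in B + A 10 than in AOS 0. The median ratio of the 9 members was 0.996, 1.10 and 1.12 in these comparisons, against 0.954, 0.995 and 0.9496 for all genes. Slc9a3 in whole libraries was at 0.540, 0.505 and 0.766, so that B + A 10 stood at 1.52 of B + A 0, but at 1.24 (1.16 to 1.34) with equal class shares. Slc4a7 stood at 1.59 of B + A 0 in whole libraries and at 1.35 (1.24 to 1.47) with equal class shares.

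Genes whose levels over the 20 clusters were most like a member's were named by Pearson's r of the log2 levels, a description over clusters that share libraries. For Guca2a they were Muc2 (0.901), the main secreted mucin, Ccl6 (0.893) and Kcnk6 (0.878), and the first 2 are goblet markers used to name classes. For Guca2b they were Fam213a, Slc43a2 and Pdzk1, at 0.893, 0.891 and 0.891. For Gucy2c they were Bag4 (0.928), Ptprf and Dyrk1a, and for Cftr Slc16a1 (0.951), Slc25a28 and Kitl. Slc9a3 was closest to Khk (0.979), ketohexokinase, then Aldh1a1 and Mttp. Slc26a3 was closest to Bche (0.991), Tkfc and Hkdc1, and Slc26a6 to Xdh (0.988), Sult1b1 and Tcn2. Slc4a7 was closest to Ap1s3 (0.966), Bcl6 and Arl5a, and Car4 to Mgat4c (0.962), an ileal marker used here, Bcl2l15 and Edn2. Among the members, Slc9a3, Slc26a3 and Slc26a6 had r of 0.95 to 0.97 with each other, Guca2a and Guca2b 0.30, and Guca2a and Cftr -0.60.

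A list of 72 further genes of the same transport was written by role, of which 64 were in the table and 51 had at least 300 UMIs. Of the 7 classes, mature enterocytes had the highest level for 23 of the 51, stem cells for 11, ileal enterocytes for 5, goblet cells for 4, mid enterocytes for 4, enteroendocrine cells for 3 and early enterocytes for 1. These counts are read against the shares of all genes given above for the members. For mature enterocytes the list was above that share, and for stem and enteroendocrine cells it was below. Among genes of cyclic nucleotide signalling, Prkg2, a cyclic GMP-dependent kinase, was at 1.87 UMIs per 10000 in mature enterocytes, 13.8-fold its lowest class. Prkar2a, a regulatory subunit of protein kinase A, was highest in mid enterocytes over the libraries together and in 2 of the 3 taken singly. The scaffold genes Slc9a3r1 and Pdzk1, whose products bind apical transporters, were at 8.25 and 2.82 in mature enterocytes. Atp1b1, a subunit of the sodium pump, was at 16.6 and Cldn15, a pore-forming tight junction gene, at 4.09 in the same class, and Ano6 at 2.26. In the duodenal class Atp1b1 was at 16.6, Cldn15 at 4.31 and Ano6 at 0.423.

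Stem cells had the highest levels of the named cotransporter and potassium channel genes of chloride secretion. Slc12a2, the basolateral cotransporter that loads chloride into the cell, was at 7.02 in stem cells, 68.8-fold its lowest class, Kcne3, a subunit of a basolateral potassium channel, at 1.89 (36.5-fold) and Aqp4, a water channel, at 0.559 (126-fold). Goblet cells were highest for Scnn1a (0.165), an epithelial sodium channel subunit, and Car8 (0.687), a carbonic anhydrase relative without enzyme activity. Ileal enterocytes were highest for the bicarbonate cotransporter gene Slc4a4 (1.38) and the sulfate transporter gene Slc26a2 (0.737), although Slc4a4 was at 1.35 in mature enterocytes, was highest in ileal cells in 1 of the 3 libraries and stood at 1.60 in the duodenal class. Of the 7 classes, mid enterocytes were highest for Car9 (1.01), a carbonic anhydrase gene, which stood at 1.53 in the duodenal class. Clcn3, a chloride/proton exchanger gene, was highest of the 7 in mature enterocytes (1.08) and stood at 1.41 in the duodenal class. Mid enterocytes were close at 1.07, and mature enterocytes were the highest in 2 of the 3 libraries.

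With equal class shares, 0 of the 51 genes were higher (0.871% of all genes) and 1 was lower (0.871%) by 1.5-fold or more in B + A 0 than in AOS 0, 2 were higher (0.753%) and 0 lower (0.516%) in B + A 10 than in B + A 0, and 1 was higher (2.11%) and 1 lower (2.01%) in B + A 10 than in AOS 0. In the last comparison 1 of 51, or 1.96%, is near the share over all genes, and nothing is read from counts this small. Those genes are named after their values were seen. Slc9a2, a sodium/hydrogen exchanger gene, was at 0.0626, 0.0344 and 0.0366 in the 3 libraries, with B + A 0 at 0.550 of AOS 0 (0.413 to 0.732) and B + A 10 at 0.585 of it. Sgk1, a kinase that regulates sodium transport, was at 0.477, 0.410 and 0.708, with B + A 10 at 1.73 of B + A 0 (1.58 to 1.89). Aqp3, a water and glycerol channel, was at 0.0600, 0.0571 and 0.0924, with B + A 10 at 1.62 of B + A 0 (1.251 to 2.09) and 1.54 of AOS 0.

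**Figure D5:**
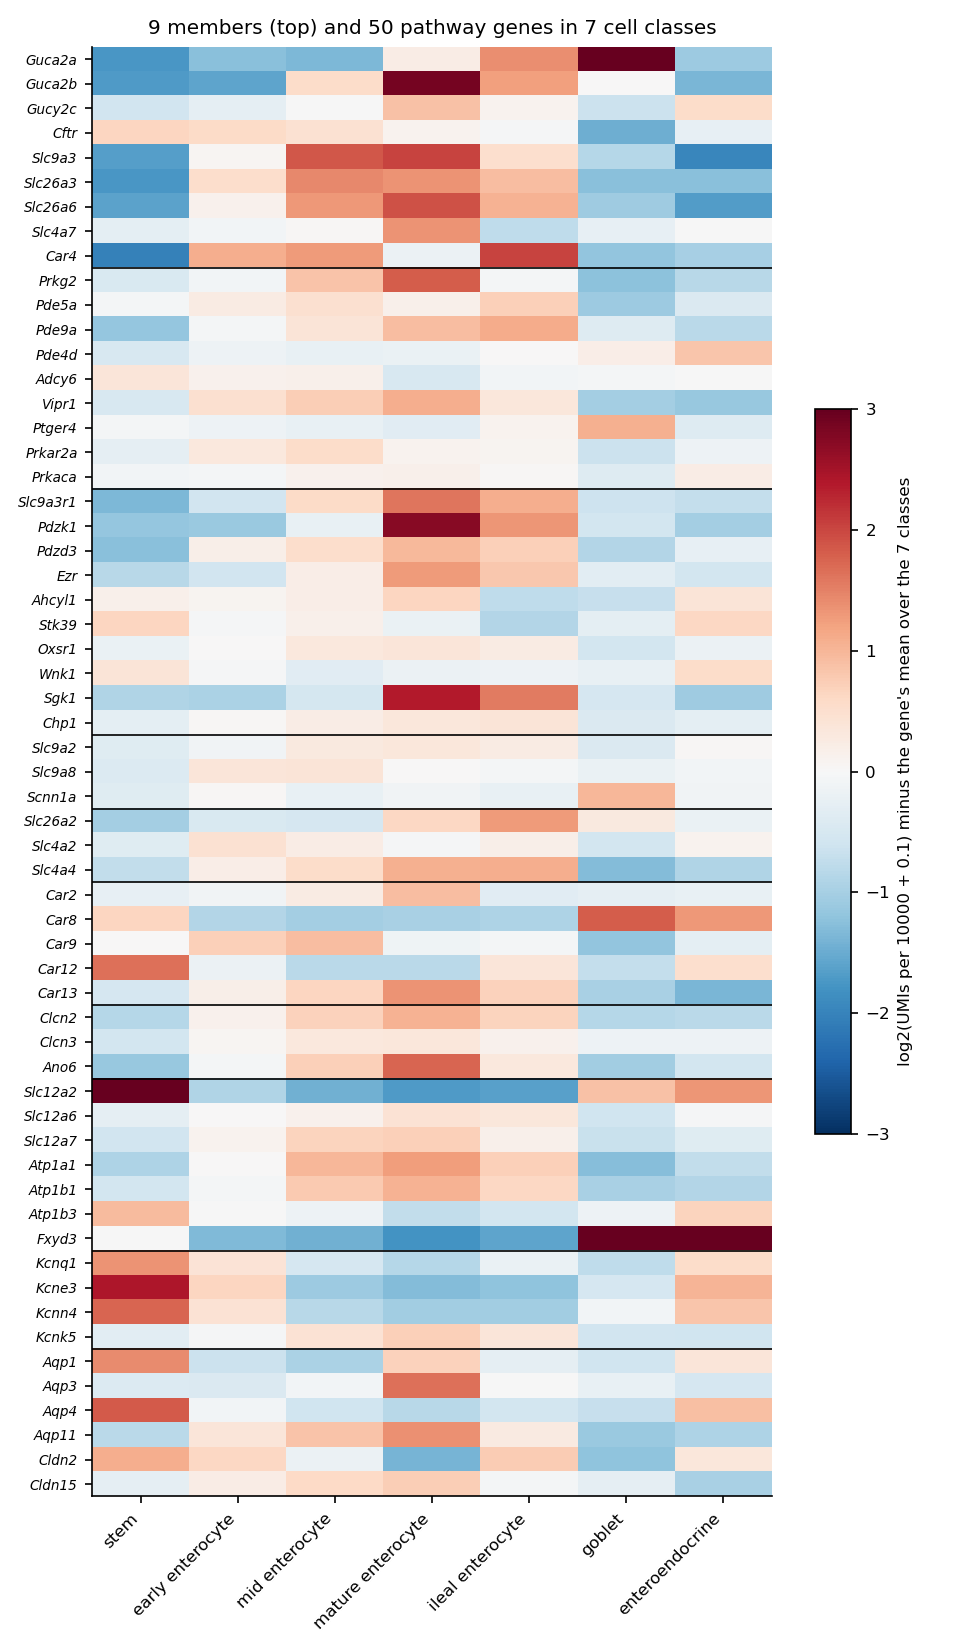
Levels of the 9 members (top block) and of 50 pathway genes grouped by role (rows) in 7 cell classes (columns), as log2 of UMIs per 10000 plus 0.1 minus the gene's mean over the classes, red above and blue below, with values past 3 in either direction in the end colours. More rows are reddest in mature enterocytes than in any other class, 23 of the pathway genes and 5 of the 9 members being highest there, and Slc12a2, Kcne3 and Aqp4 are reddest in stem cells.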

How the data were processed

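Droplet 3′ single-cell libraries of mouse small intestine were analysed from 1 table that the authors deposited, holding per cell the natural log of 1 plus UMIs per 10000 UMIs. The submitters' processing notes name Cell Ranger 2.2.0, with reads aligned to mm10. All 24333763 values above 0 came back as whole UMIs (100% within 0.01), and 0 columns of cells were left unused. Samples were grouped by title, description and treatment. The members and lists were chosen with earlier results of these data known.

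Libraries were joined by Seurat 5.3.0 in R 4.3.3, with Matrix 1.6.5 and SeuratObject 5.2.0, through canonical correlation anchors on 20 dimensions of 2000 variable genes, leaving out the 73 described genes of the table, and the 20-neighbour graph gave 20 clusters at resolution 0.8 (seed 1). A cluster took the marker list with the highest score (mean standardized log2 of level plus 0.1) unless another list had more markers among its 10 leading genes. It stayed unnamed with none of its own markers there or a score under 1, and mixed with a second lineage at 1.5 or more. The mature and proximal enterocyte lists were merged. These rules were set after the clusters were seen. Doublets were kept: the automatic threshold of Scrublet (30 components) called 15 cells and did not work, so the top 5% of each library (597 cells) were called for an alternative. Thinning to 1000 UMIs left out 0 cells.

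UMIs were summed per class and library in Python 3.11.15 (pandas 2.3.3, numpy 2.4.6, scipy 1.17.1, with scikit-learn 1.9.0, anndata 0.12.19 and scanpy 1.11.5 for Scrublet, and matplotlib 3.10.9 for figures), and the ratio step was tested on simulated data. Precision follows the UMIs behind each value. Named genes were the 9 members, per role the pathway gene with most UMIs and that with the largest ratio of highest to lowest class, the 3 genes most correlated with each member, and the markers. The values of 1 pathway gene are not reported here. Alternatives were clustering without joining, resolutions 0.4 and 1.5, described genes kept, classes from each cell's own score, called doublets left out, cells with at least 500 genes, means over cells, scaling without ribosomal, hemoglobin and defensin genes, unthinned cells, a fold of 1.25, genes with at least 100 UMIs and whole-library ratios. Gene positions are from GENCODE (GRCm38) and promoters from RefSeq (GRCm38.p6).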

Additional observations from a re-analysis of the deposited data

How the results depend on the processing

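Of 246 ratios between libraries recomputed under the alternatives, 225 moved by less than their counting error and 21 moved by more. Of the 21, 0 changed direction. Some ratios near a log2 of 0 did change sign while moving less than that. Gucy2c in mature enterocytes, B + A 0 to AOS 0, was at -0.026 and, at resolution 0.4, at 0.038. Of 246 levels, 173 stayed within counting error and 73 did not, and these 73 were between 0.794 and 1.44 of their main value. Of the 73, 19 moved with classes from each cell's own score and 15 without ribosomal, hemoglobin and defensin genes, the setting that gave the highest. The other ways of forming classes kept 67.7 to 83.1% of cells in the same class. The log2 ratios that moved were those of the peptides and 1 of the receptor. Guca2a in goblet cells, B + A 0 to AOS 0 (-0.18), was -0.23 without joining the libraries, -0.21 with the described genes kept, -0.25 with classes from each cell's own score, and -0.24 without the goblet cluster holding most called doublets, an alternative chosen after seeing the data. B + A 10 to AOS 0 (-0.31) was -0.37, -0.36, -0.37 and -0.34 in these settings and -0.34 as a mean over cells. B + A 10 to B + A 0 (-0.13) was -0.17 as a mean over cells and -0.11 without that cluster. Guca2b in mature enterocytes, B + A 0 to AOS 0 (-0.29), was -0.24 at resolution 1.5, -0.25 with the described genes kept and -0.33 as a mean over cells. B + A 10 to B + A 0 (0.23) was 0.14 without joining and 0.18 by own score. B + A 10 to AOS 0 (-0.06) was -0.13 without joining, -0.0196 at resolution 1.5, -0.0303 with the described genes kept and -0.13 by own score. Gucy2c in mature enterocytes, B + A 10 to B + A 0 (0.31), was 0.10 by own score, within counting error. The cause was not tested.

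Counts of pathway genes were small and moved with the fold and filter. At the smaller fold they were 2 higher and 2 lower in B + A 0 than in AOS 0, 4 higher in B + A 10 than in B + A 0, and 4 higher and 5 lower in B + A 10 than in AOS 0 (3.28, 7.44, 5.09, 7.50 and 14.4% of all genes against 3.92, 3.92, 7.84, 7.84 and 9.80% of the 51). With genes of at least 100 UMIs they were 1 and 2, 5 higher, and 4 and 2 of 58 (1.76, 1.91, 1.45, 3.03 and 3.19% of all genes). By whole-library ratios B + A 10 against AOS 0 gave 2 and 2 (2.55 and 2.92%). No paired analysis was possible because each group had 1 library. Few cells, 155 enteroendocrine and 29 tuft, limit those classes.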
